A study of Mus musculus with 10 samples.

Results

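The meiotic recombination and pairing genes of the mouse testis were examined as a module of 31 genes, listed by symbol and not by any measured value, out of 20142 genes in the deposited RNA-seq tables. All 31 genes were present in both tables. One table held 4 samples of Sertoli cells isolated at 7 days after birth, 2 labelled wild type (WT) and 2 labelled Rnf20 conditional knockout (cKO), and the other held 6 samples of adult testis tissue, 3 labelled WT and 3 labelled cKO. In the study's methods the day 7 controls are Rnf20 Flox/Flox mice and the cKO is Amh-Rnf20-/-, in which Cre driven by the Amh promoter acts in Sertoli cells, the somatic cells that nurse the germ cells. The floxed allele is thus carried by both day 7 groups, and germ cells are not the target of the Cre. The methods describe the day 7 cells as an adherent fraction kept through several passages, and they do not describe the adult experiment. The titles place the Sertoli cells at day 7 whereas their growth field names adult tissue, and the day of the titles was used. The labels do not say whether each sample came from a separate animal, so the p-values below measure the spread between these samples, which may be technical.

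Meiosis begins with programmed DNA breaks. SPO11 cuts the DNA at sites marked by PRDM9, the recombinase DMC1 carries the broken ends into the homologous chromosome with the help of BRCA2, and proteins such as MSH4, MSH5 and RNF212 protect a few of the joined molecules until MLH3 turns them into crossovers. Meanwhile cohesins that contain REC8, RAD21L and STAG3 hold the chromosome axis, and the MAJIN, TERB1 and TERB2 complex fastens telomeres to SUN1 in the nuclear envelope so that homologues can find each other. In the testis these events take place in spermatocytes.

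The libraries held between 17477268 and 17705347 counts at day 7 and between 15431912 and 16574144 counts in the adult. The adult cKO replicate 1 stood apart from the other 2 cKO libraries: the chi-square of its gene counts, divided by the degrees of freedom, was 88.1 and 118 against them and 21.4 between them. Adult fold changes and counts of calls are therefore given also without it. At day 7 the same measure was 2.65 for the WT pair and 34.3 for the cKO pair. Rnf20 itself was read first. At day 7 its FPKM was 16.6 and 16.0 in the WT samples and 10.2 and 12.6 in the cKO samples, a log2 fold change of -0.49 ± 0.12 (SE; edgeR adjusted p = 0.222). In the adult its FPKM was 4.89, 3.32 and 4.09 in the WT libraries and 9.16, 5.76 and 9.85 in the libraries labelled cKO, so the targeted gene was not lower in the latter. The size of the difference depended on scaling, which is described below. The adult log2 fold change of Rnf20 was 0.12 ± 0.27 (SE; edgeR adjusted p = 0.688) with TMM scaling and 0.97 (0.0168) with total counts. The values cover the whole gene and not the floxed part alone, and whole testis holds many cells outside the reach of the Cre. Whether either bears on the Rnf20 values was not tested. By Western blot the paper reports less RNF20 protein and less H2BK120ub, a ubiquitin mark on histone H2B, in adult cKO testes. Those are measures of protein and not of RNA. The adult groups are called below by what their labels say, WT and labelled cKO.

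In the adult testis the module was lower in the labelled cKO libraries. Of the 31 genes, 30 passed the filter on low values (an FPKM of 0.5 or more in at least 3 samples), and all 30 had a log2 fold change below 0 in the edgeR quasi-likelihood fit over all genes. "Fell" and "rose" are used below for a Benjamini-Hochberg adjusted p under 0.05 over the 15919 genes tested. By that measure 20 of the 30 (66.7%) fell and none rose, where 40.6% of all genes tested fell and 40.9% rose. At an unadjusted p under 0.05 the members counted 21 lower and 0 higher, against 41.1% and 41.4% of all genes. The study's own thresholds, a log2 fold change beyond 1 and an adjusted p under 0.001, were met by 4 members (13.3%), Psmc3ip, Ccnb1ip1, Sun1 and Mlh3, where 23.7% of all genes tested met them on the lower side. The median log2 fold change was -2.10 over the members and 0.01 over all genes tested. In TMM-scaled CPM the labelled cKO and WT libraries did not overlap, with the former lower, for 26 of the 30 members tested, where this held for 43.1% of all genes tested, and for none with the labelled cKO libraries higher, where it held for 42.4%. In such whole-tissue samples, fewer cells of a type and less RNA per cell cannot be told apart.

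The count past the study's thresholds moved with the libraries used. Without the labelled cKO replicate 1, 22 members passed both thresholds, where 31.6% of all genes did on the lower side, and 23 fell, where 41.1% of all genes did. The 20 that fell with all samples were all among the 23. Without the labelled cKO replicate 2, 1 member passed both thresholds and 16 fell, against 10.6% and 37.6% of all genes. Without replicate 3 these counts were 3 and 19, against 12.3% and 38.2%. Without WT replicate 1, 2 or 3, 1 member passed both, where 1793, 1613 and 1641 of the 15919 genes did on the lower side. The labelled cKO libraries stood at different levels: the median member stood at 2.15% of its WT mean in replicate 1, at 22.9% in replicate 2 and at 31.6% in replicate 3. Replicate 1 was the lowest of the labelled cKO libraries for 27 of 31 members. In it 3 members (Spo11, Rad21l and Terb2) had 0 counts and 11 had 3 counts or fewer, and in the other 2 labelled cKO libraries no member had so few.

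**Figure D1:**
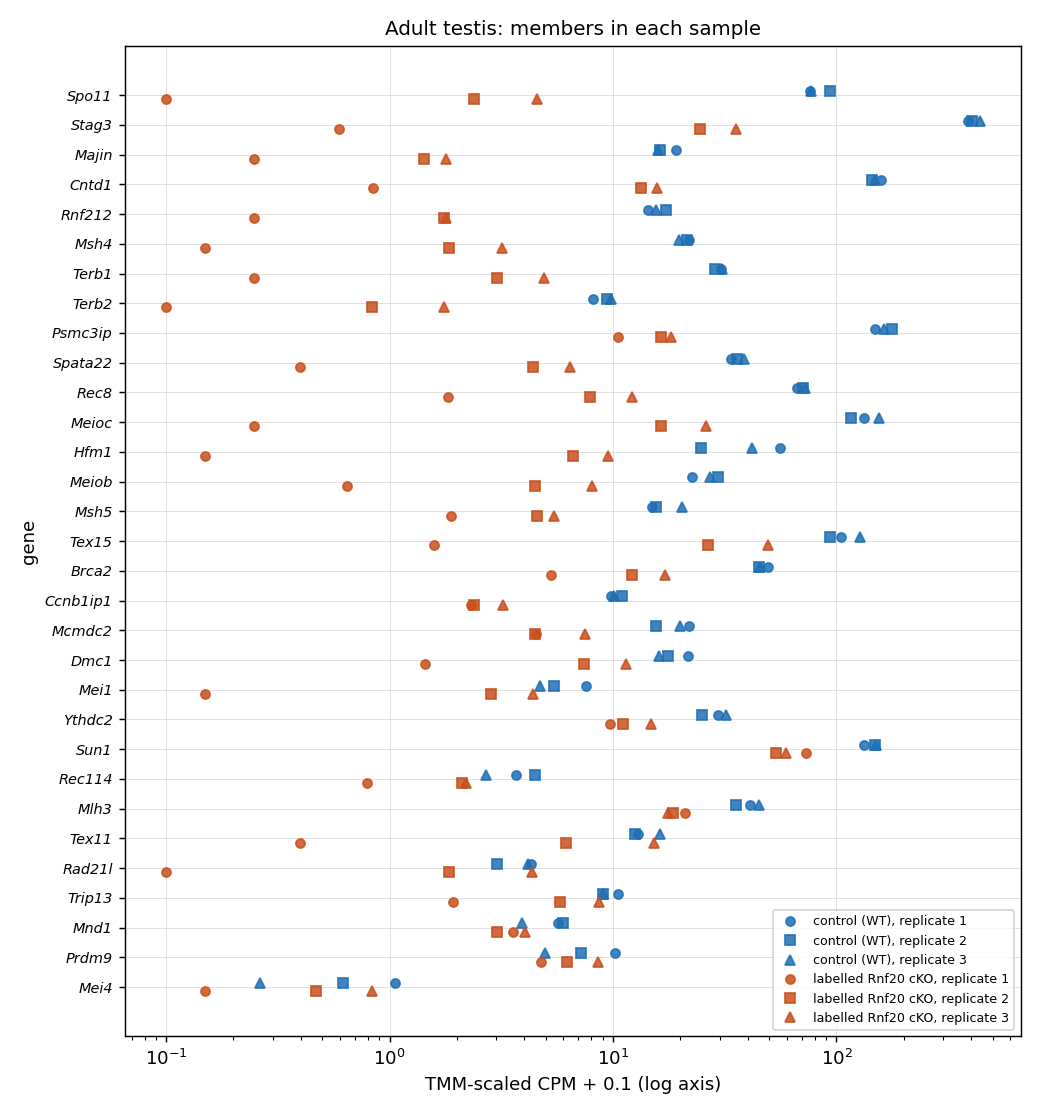
Level of each of the 31 genes in the 6 adult testis samples, as TMM-scaled CPM plus 0.1 on a log axis, with genes ordered from the lowest log2 fold change at the top and Mei4, which was not tested, at the bottom. Blue points are WT and orange points labelled cKO libraries, with a marker shape for each replicate; orange circles, cKO replicate 1, lie furthest left for most genes, and the groups do not overlap for 26 of the 30 genes tested.

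Scaling bore on the size of these differences. TMM factors rescale libraries on the assumption that most genes do not differ. With TMM scaling, 40.6% of all genes tested in the adult still fell and 40.9% rose. The factors were between 0.710 and 0.761 in the WT libraries and between 1.27 and 1.42 in the labelled cKO libraries. With total counts in their place the median over all genes moved from 0.01 to 0.87 in log2 fold change and the share of higher calls among all calls from 49.2% to 72.2%. Under that scaling the median of the members was -1.22, 16 members fell where 30% of all genes did, 1 passed both thresholds where 14.1% of all genes did on the lower side, and 3 members (Prdm9, Mnd1 and Trip13) changed sign. The 4 members that no longer fell were Meiob, Hfm1, Mlh3 and Ythdc2. By FPKM, a comparison added after seeing the data, the groups did not overlap on the lower side for 19 of the 30 members in place of 26, where this held for 32.4% of all genes.

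**Figure D2:**
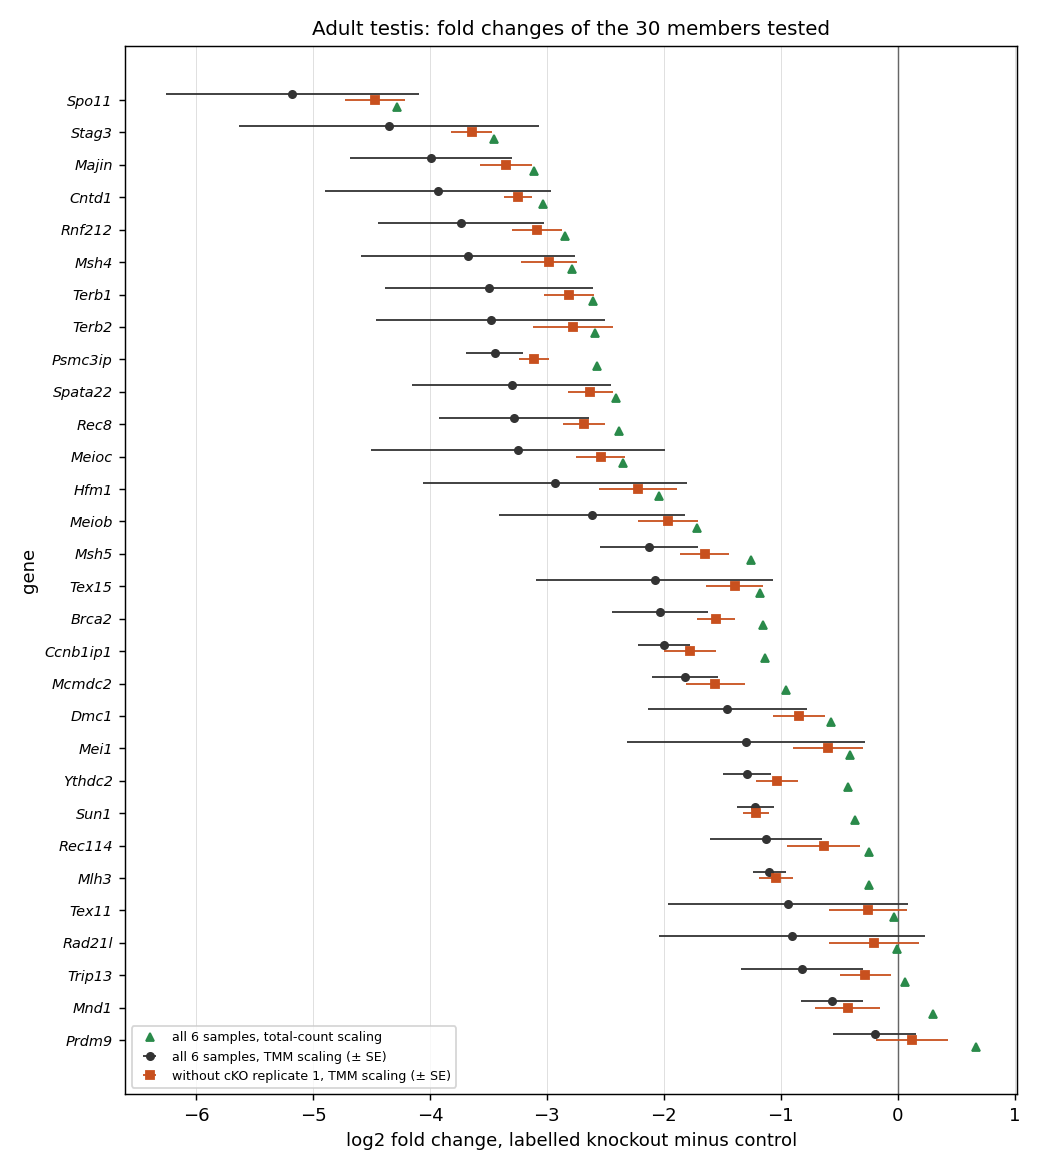
Log2 fold change, labelled knockout minus control, of the 30 members tested in adult testis. Black circles use all 6 samples and orange squares leave out the labelled cKO replicate 1, both with TMM scaling and bars of 1 SE, and green triangles use total counts; leaving out replicate 1 narrows most bars, and total-count scaling moves all 30 genes to the right, 3 of them past 0.

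The genes of DNA break formation were the least uniform of the larger groups. Spo11, which encodes the catalytic subunit of the break machinery, had the lowest fold change of the module. It was at 76.0, 93.0 and 76.9 scaled CPM (library-size and TMM scaled counts) in the WT libraries and at 0, 2.29 and 4.45 in the labelled cKO libraries, where 3 counts are worth 0.148 in replicate 1. The groups lay far apart, and the log2 fold change was -5.18 ± 1.08 (SE; edgeR adjusted p = 0.00453) with all samples and -4.47 without replicate 1. It was the only break formation gene that fell. Prdm9, whose methyltransferase marks hotspots, was at 10.1, 7.06 and 4.88 in the WT and 4.65, 6.14 and 8.43 in the labelled cKO libraries. The groups overlapped, and its log2 fold change of -0.20 ± 0.36 (SE; edgeR adjusted p = 0.625) became 0.67 with total-count scaling and 0.12 without replicate 1. Mei1 and Rec114, both required for breaks to form, had log2 fold changes of -1.30 (edgeR adjusted p = 0.274) and -1.13 (0.0671), which became -0.60 and -0.63 without replicate 1 and -0.40 and -0.25 with total-count scaling. Their groups did not overlap in scaled CPM and overlapped in FPKM. Mei4, a partner of REC114, had 12, 6 and 2 counts in the WT and 1, 8 and 16 in the labelled cKO libraries and was too low to be tested.

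Among the 8 genes of strand exchange 5 fell. Psmc3ip (HOP2), whose product works with MND1 to stimulate strand exchange, was the member with the highest level per length, at an FPKM of 167 ± 9.17 (SD, n = 3) in the WT and 27.9 ± 8.69 (SD, n = 3) in the labelled cKO libraries. In scaled CPM it was at 149, 177 and 163 against 10.4, 16.4 and 18.0. All labelled cKO libraries were far below all WT libraries, at 6.40%, 10.04% and 11.1% of the WT mean, and the log2 fold change was -3.45 ± 0.24 (SE; edgeR adjusted p = 6.33e-05), or -3.11 without replicate 1. Its partner Mnd1 took another course. It was at 5.56, 5.85 and 3.82 against 3.46, 2.93 and 3.94, the groups overlapped, and the log2 fold change of -0.56 ± 0.27 (SE; edgeR adjusted p = 0.0949) became 0.30 with total-count scaling and -0.43 without replicate 1. The difference between the 2 partners was not itself tested. Spata22 and Meiob, which encode single-strand DNA binding partners of each other, fell by 3.30 and 2.61 on the log2 scale (edgeR adjusted p = 0.0112 and 0.0212), and Brca2 fell by 2.03 (0.00399). Without replicate 1 the 3 genes stood at -2.63, -1.96 and -1.55. Meiob lost its call with total-count scaling (-1.71, edgeR adjusted p = 0.0883) and without labelled cKO replicate 2 (0.0667), WT replicate 2 (0.0603) or WT replicate 3 (0.056). Dmc1, the meiosis-specific recombinase, was at 21.6, 17.6 and 15.9 against 1.33, 7.33 and 11.4 scaled CPM. Its groups did not overlap in scaled CPM and overlapped in FPKM. Its log2 fold change of -1.46 ± 0.68 (SE) had an edgeR adjusted p of 0.0883 with all samples. Without replicate 1 the fold change was -0.84 (edgeR adjusted p = 0.00613), and with total counts it was -0.57 (0.472). Tex15, needed for meiotic break repair, likewise stood at -2.08 (edgeR adjusted p = 0.0998) with all samples and -1.39 (0.000568) without replicate 1. With total counts Tex15 stood at -1.18 (edgeR adjusted p = 0.31), and its groups also overlapped in FPKM.

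Of the 8 crossover genes 7 fell. Cntd1, a cyclin-like protein that matures crossover sites, was at 158, 144 and 149 scaled CPM in the WT and at 0.741, 13.2 and 15.6 in the labelled cKO libraries. Its log2 fold change was -3.93 ± 0.97 (SE; edgeR adjusted p = 0.00912), or -3.25 without replicate 1. The ring finger protein gene Rnf212 and the MutS homologue gene Msh4, both acting where crossovers are designated, fell by 3.73 and 3.67 on the log2 scale (edgeR adjusted p = 0.00305 and 0.00955), and stood at -3.08 and -2.98 without replicate 1. Msh5, whose product pairs with MSH4, fell by 2.13 (edgeR adjusted p = 0.00349), and the helicase gene Hfm1 by 2.93 at the edge of the threshold (0.0498). Without replicate 1 they stood at -1.65 and -2.22. Hfm1 lost its call with total-count scaling (edgeR adjusted p = 0.138) and without any of the other samples, with adjusted p between 0.0743 and 0.13. Ccnb1ip1 (HEI10), a ring finger protein that gathers at crossover sites, was at 9.70, 10.8 and 9.996 against 2.22, 2.29 and 3.12 scaled CPM. The 3 labelled cKO libraries lay close together, and the log2 fold change was -1.997 ± 0.22 (SE; edgeR adjusted p = 0.00031), or -1.78 without replicate 1. Mlh3, the endonuclease subunit of the crossover complex, was at 41.1, 35.5 and 44.9 against 20.9, 18.4 and 17.5. It fell by 1.097 on the log2 scale (edgeR adjusted p = 0.000559) with TMM scaling and stood at -1.04 without replicate 1 and at -0.25 (0.167) with total counts, and its FPKM of 5.70 ± 0.85 (SD, n = 3) in the WT overlapped with the 4.81 ± 0.22 (SD, n = 3) of the labelled cKO libraries. The X-linked Tex11 did not fall: replicate 1 stood at 2.15% of the WT mean, replicate 2 at 43.9% and replicate 3 at 110%, with a log2 fold change of -0.94 ± 1.02 (SE; edgeR adjusted p = 0.421), or -0.25 without replicate 1.

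Of the 3 meiotic cohesin genes 2 fell. Stag3 had the highest scaled counts of the module, 389, 403 and 438 CPM in the WT libraries against 0.494, 24.4 and 35.4 in the labelled cKO libraries, and a log2 fold change of -4.35 ± 1.28 (SE; edgeR adjusted p = 0.0189). Its fold change was -3.64 without replicate 1, and without replicate 2 it lost its call (edgeR adjusted p = 0.06). Rec8 fell by 3.28 on the log2 scale (edgeR adjusted p = 0.00344), from 69.7 ± 3.03 (SD, n = 3) to 7.18 ± 5.17 (SD, n = 3) scaled CPM, and stood at -2.68 without replicate 1. Rad21l, a low gene of 4.21, 2.93 and 4.06 scaled CPM in the WT libraries, was at 0, 1.74 and 4.22 in the labelled cKO libraries. Replicate 3 thus reached the WT range, and the log2 fold change was -0.90 ± 1.14 (SE; edgeR adjusted p = 0.483), or -0.20 without replicate 1.

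All 4 genes of telomere attachment fell. Majin, which encodes the membrane anchor of the complex, was at 19.1, 16.2 and 15.8 scaled CPM against 0.148, 1.33 and 1.70, with a log2 fold change of -3.99 ± 0.69 (SE; edgeR adjusted p = 0.00201), or -3.35 without replicate 1. Terb1 and Terb2, which join that anchor to the telomere, fell by 3.50 and 3.48 on the log2 scale (edgeR adjusted p = 0.0105 and 0.0158) and stood at -2.81 and -2.78 without replicate 1. Terb2 lost its call without replicate 2 (edgeR adjusted p = 0.0575). Sun1, whose product spans the inner nuclear membrane of many cell types, had the smallest change of the 4. It was at 133, 148 and 150 against 72.7, 53.4 and 59.5, and replicate 1 was its highest labelled cKO library rather than its lowest. The log2 fold change was -1.22 ± 0.16 (SE; edgeR adjusted p = 0.000541) with TMM scaling, -1.21 without replicate 1 and -0.36 (0.0491) with total counts.

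The remaining members concern entry into meiosis and its surveillance. The RNA-binding partners Meioc and Ythdc2 keep germ cells in the meiotic programme. Meioc was at 133, 116 and 156 scaled CPM against 0.148, 16.4 and 26.0, and its log2 fold change of -3.25 ± 1.26 (SE) had an edgeR adjusted p of 0.0506 with all samples and of 4.42e-06 without replicate 1, where the fold change was -2.54. Ythdc2 fell by 1.29 on the log2 scale (edgeR adjusted p = 0.00138) and stood at -1.03 without replicate 1 and -0.43 (0.145) with total counts. Trip13, an ATPase that remodels the chromosome axis and also serves the mitotic checkpoint, was at 10.4, 8.95 and 8.94 against 1.83, 5.68 and 8.53. The groups did not overlap in scaled CPM. The log2 fold change was -0.82 ± 0.52 (SE; edgeR adjusted p = 0.189), -0.28 without replicate 1 and 0.07 with total counts.

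Per length, the members were spread widely in the WT testis. After Psmc3ip came Stag3 at 88.8 ± 6.12 (SD, n = 3), Cntd1 at 56.6 ± 4.40 and Spo11 at 44.0 ± 3.82, each clear of its neighbour. Sun1 at 28.9 ± 1.75 and Rec8 at 28.8 ± 1.27 did not differ beyond their spread. In all, 10 members had a WT mean FPKM of at least 10, and Mei4 was lowest at 0.117 ± 0.0611. In the labelled cKO libraries Sun1 (22.0 ± 2.71) took the place next to Psmc3ip, while Spo11 stood at 2.22 ± 2.25. The FPKM of Mnd1 was 6.08 ± 1.22 in the WT and 7.54 ± 1.31 in the labelled cKO libraries, and that of Prdm9 was 1.503 ± 0.52 and 2.43 ± 0.78 (SD, n = 3 each), so both were higher by FPKM and lower by TMM-scaled CPM. The same held for Trip13 (FPKM of 3.48 ± 0.40 and 3.65 ± 2.41) and for Mei4 (0.117 ± 0.0611 and 0.137 ± 0.122). Mnd1, Prdm9 and Trip13 did not pass the count test, and Mei4 was not tested.

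Counts and FPKM gave different sizes of change for Mcmdc2. The gene, which encodes a relative of the replicative helicase, fell by 1.82 on the log2 scale from counts (edgeR adjusted p = 0.00123; -1.56 without the labelled cKO replicate 1) and by 0.95 with total-count scaling (0.0288), but stood at -2.17 (limma adjusted p = 0.0017) when fitted on log2(FPKM + 0.1). The effective length implied by count, FPKM and library total was 2.84 ± 0.118 kb (SD, n = 3) in the WT libraries and 8.203, 6.59 and 6.18 kb in the labelled cKO libraries. At day 7 it was 8.19 kb in the WT and 8.29 kb in the cKO samples on average. Over the adult genes with enough counts, 0.561% (59 of 10521) had an implied length that differed more than 2-fold between the groups, and Mcmdc2 was the only one of the 13 members measured. It overlaps the annotated Snhg6, and its counts, like those of Cntd1, were not whole numbers. In all, 11 members overlap another annotated protein-coding or long non-coding gene, among them Cntd1 with Becn1, Psmc3ip with Mlx and Stag3 with Gal3st4 and Gpc2. The handling of strand is not given in the sources used here, so reads from such partners could not be told apart.

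**Figure D3:**
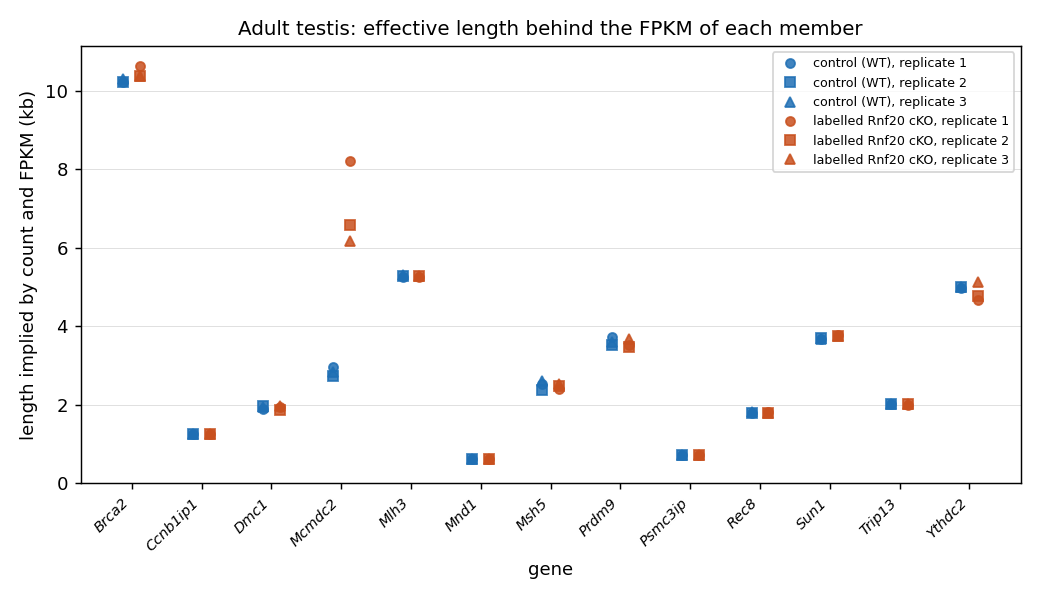
Effective length in kb implied by the deposited count and FPKM of each of the 13 members with enough counts in all 6 adult testis samples, blue for WT and orange for labelled cKO libraries, with a marker shape per replicate. For 12 genes the samples lie together, and for Mcmdc2 the WT libraries lie at 2.84 kb on average and the labelled cKO libraries between 6.18 and 8.203 kb.

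Promoter sequence was read as a feature that the choice of genes did not use. RefSeq windows on GRCm38.p6, from 250 bases before to 50 bases after a reference start, were matched for 23 of the 31 members and 27025 genes in all. The reference start is not always the outer start of the annotated gene. The Stag3 window begins at 138280259 and its gene at 138272514. The windows of Rec114, Mei1 and Spata22, among others, also lie inside their annotated genes. The E2F motif GGCGGGA, on either strand, was present for 9 of the 23 members (39.1%) against 12.8% of all genes. It was present for 8 of the 14 matched members that fell in the adult testis and for 1 of the other 9. Those 9 include Mei4, which had no adult test, and whether the motif goes with the adult calls was not tested. The CACGTG E-box was present for 4 (17.4%, against 8.09% of all genes), the CNCCTCAG motif of STRA8 and MEIOSIN, the factors that switch on meiotic genes, also for 4 (17.4%, against 9.12%), and the MYB motif AACNGTT and the RFX half-site GTTGCCA for none (5.01% and 5.03% of all genes). With the bases before the reference start alone, the E2F motif was present for 7 members (30.4%) against 11.03% of all genes. These were 6 of the 14 that fell and 1 of the other 9. The median GC content was 59.5% over the 26 member windows and 52.7% over all 32851 windows. The windows of Psmc3ip and Ccnb1ip1 are shown because these genes met both thresholds in the adult and hold the E2F motif close to the start, that of Stag3 for its E-box and its place near the bottom of the fold changes, and the upstream window of Prdm9 as a member that did not pass the test yet holds E2F and STRA8 and MEIOSIN letters that overlap each other. Capitals mark the matched motifs, and each sequence runs 5′ to 3′ on the strand of the gene.
Psmc3ip, chr11:101095386-101095685, minus strand: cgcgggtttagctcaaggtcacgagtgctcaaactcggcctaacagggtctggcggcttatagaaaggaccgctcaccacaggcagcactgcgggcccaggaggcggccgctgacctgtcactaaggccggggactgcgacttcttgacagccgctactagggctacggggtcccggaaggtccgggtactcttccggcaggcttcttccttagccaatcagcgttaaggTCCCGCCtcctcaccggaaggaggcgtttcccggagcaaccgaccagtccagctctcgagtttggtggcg
Ccnb1ip1, chr14:50795679-50795978, minus strand: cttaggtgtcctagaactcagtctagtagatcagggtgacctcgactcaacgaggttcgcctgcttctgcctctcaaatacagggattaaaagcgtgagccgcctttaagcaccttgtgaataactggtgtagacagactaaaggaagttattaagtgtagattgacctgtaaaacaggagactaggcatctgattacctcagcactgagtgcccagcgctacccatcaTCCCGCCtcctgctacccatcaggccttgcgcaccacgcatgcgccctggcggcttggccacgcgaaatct
Stag3, chr5:138280259-138280558, plus strand: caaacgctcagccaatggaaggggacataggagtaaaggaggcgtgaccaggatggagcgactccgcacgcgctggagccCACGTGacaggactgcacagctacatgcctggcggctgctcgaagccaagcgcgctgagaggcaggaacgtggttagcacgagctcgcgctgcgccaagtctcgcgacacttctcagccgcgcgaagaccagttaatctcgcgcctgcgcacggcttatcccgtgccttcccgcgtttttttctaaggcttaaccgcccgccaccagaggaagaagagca
Prdm9, chr17:15564305-15564604, minus strand: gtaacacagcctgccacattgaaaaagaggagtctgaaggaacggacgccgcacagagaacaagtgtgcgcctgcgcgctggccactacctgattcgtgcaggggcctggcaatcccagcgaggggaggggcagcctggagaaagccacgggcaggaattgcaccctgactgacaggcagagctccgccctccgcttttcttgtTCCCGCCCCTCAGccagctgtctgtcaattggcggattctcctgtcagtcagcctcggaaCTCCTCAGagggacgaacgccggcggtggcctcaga
In Psmc3ip and Ccnb1ip1 the E2F letters begin 20 and 21 bases before the reference start. In Stag3 the E-box begins 170 bases before a reference start that lies inside the annotated gene. A match is a description of the letters and not of binding.

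Other genes of the pathway were read from 2 lists that hold no member. Of 29 other recombination genes tested in the adult, 14 fell and 4 rose, where 40.6% of all genes tested fell and 40.9% rose. Their median log2 fold change was -1.15 (-0.27 with total-count scaling). Without the labelled cKO replicate 1, 17 fell, where 41.1% of all genes did, and 4 rose, with a median of -0.62. At the lower end were Hsf2bp, which encodes a meiotic partner of BRCA2, at -4.25 ± 0.93 (SE; edgeR adjusted p = 0.00558), and Ankrd31, a partner of REC114, at -3.56 ± 1.08 (SE; edgeR adjusted p = 0.0207). Without replicate 1 they stood at -3.58 and -2.86, and with total counts Ankrd31 lost its call (edgeR adjusted p = 0.0572). At the upper end, Rad50 of the break-sensing complex and Rpa3 of the single-strand binding complex rose by 0.82 ± 0.13 and 0.84 ± 0.20 (SE; edgeR adjusted p = 0.00133 and 0.00842). Of the 8 cohesin genes that dividing and resting cells share, 2 fell and 3 rose, with and without replicate 1. With all samples, 40.6% and 40.9% of all genes tested did so. Smc1a, the ring subunit of mitotic cohesin, rose by 3.13 ± 0.22 (SE; edgeR adjusted p = 5.9e-05), from 7.71, 5.16 and 7.15 to 69.9, 51.3 and 54.9 scaled CPM, and Stag2 rose by 1.57, while the meiotic Stag3 and Rec8 fell. Wapl, which releases cohesin from chromosomes, fell by 1.78 (edgeR adjusted p = 0.00015), and the cohesin-associated Pds5b fell by 0.43 (0.0116) with TMM scaling and rose by 0.43 (0.0197) with total counts.

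Cell type markers moved with the groups. The counts below stand beside 40.6% of all genes tested that fell and 40.9% that rose. Of 20 spermatocyte markers 17 fell and none rose, and their summed FPKM was 6958 to 7348 in the WT libraries and 47.4, 455 and 618 in the labelled cKO replicates 1, 2 and 3, the same order as the summed FPKM of the members (70.5, 145 and 204, against 572 to 603 in the WT libraries). In replicate 1, 5 of the 20 spermatocyte markers (Tex12, Hormad2, Ccna1, Pgk2 and Adam2) were at 0. Syce2 was the largest there, and the list without it summed to an FPKM of 19.2. Sycp3, of the synaptonemal complex, was at an FPKM of 0.80 in replicate 1 against 42.5 and 72.4 in replicates 2 and 3 and 191 to 195 in the WT libraries. All 12 spermatid markers fell. Of 12 spermatogonium markers tested 4 fell and 3 rose (median log2 fold change -0.50, and 0.40 with total counts), and their summed FPKM of 280 to 312 in the WT libraries compared with 62.3, 341 and 486. Of 15 Sertoli cell markers 9 rose and 1 fell, and all 8 Leydig cell, all 7 macrophage and all 6 stromal fibroblast markers rose, as did 5 of 7 peritubular myoid and 5 of 6 endothelial markers. Without replicate 1 all 20 spermatocyte markers fell, 14 of 15 Sertoli cell markers rose and 1 fell, 5 spermatogonium markers fell and 5 rose (median 0.18), and the counts for the other lists were the same. The part of these shifts in the values of the members was not tested.

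**Figure D4:**
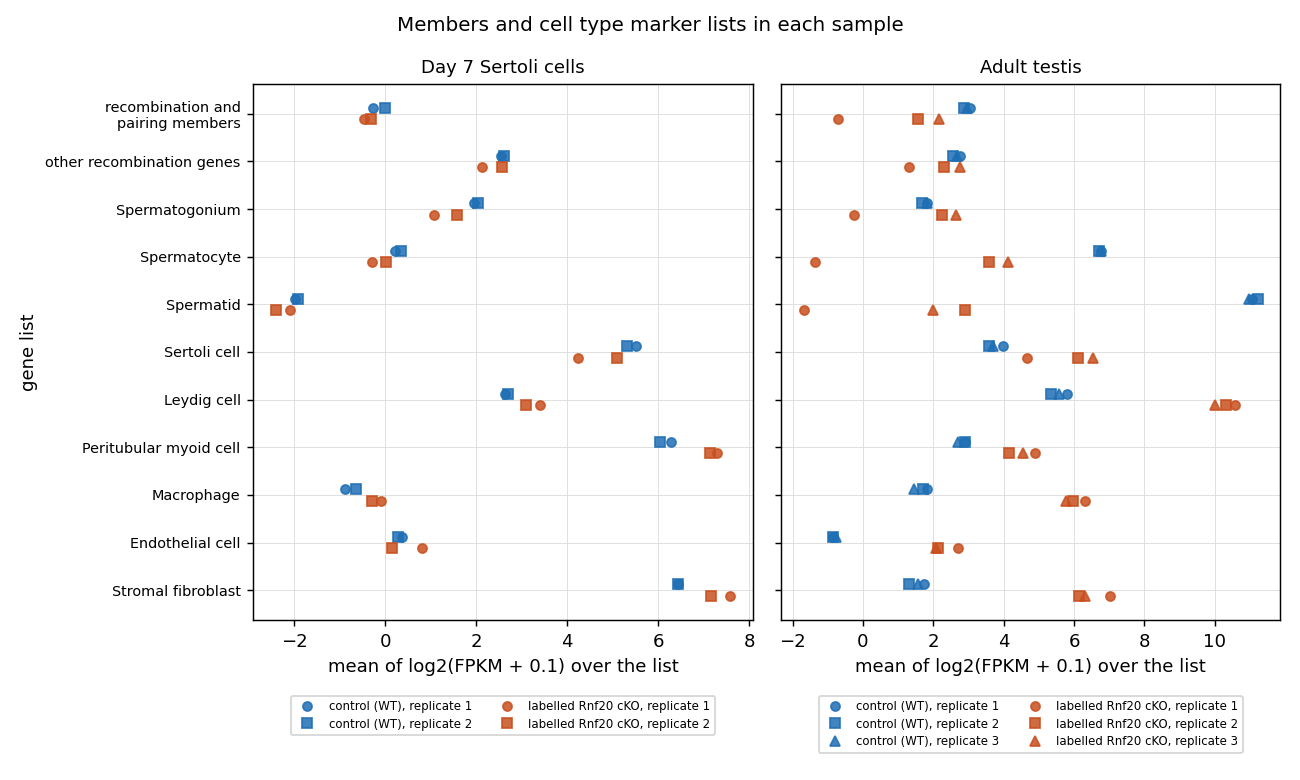
Mean of log2(FPKM + 0.1) over the members and over the other gene lists in each sample, with day 7 Sertoli cells at the left and adult testis at the right, blue for WT and orange for cKO, with a marker shape per replicate. In adult testis the members lie at 2.87 to 3.04 in the WT and at -0.70, 1.57 and 2.17 in the labelled cKO replicates 1, 2 and 3, and at day 7 they lie between -0.47 and 0.00 in all 4 samples.

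In the day 7 Sertoli cells the module was present at low level and no member passed a test. Of the 31 genes 16 passed the filter. None of the 16 met the study's thresholds or an adjusted p under 0.05 in edgeR, and neither did any of the 12880 genes tested (0%). The paper differs here: from more individuals per group it reports both higher and lower genes at its thresholds in these cells. Among its lower genes it reports an enrichment of terms that include meiotic cell cycle and spermatogenesis. DESeq2 called 126 genes and no member. At an unadjusted p under 0.05 there was 1 member, Ythdc2 (6.25% of the 16), where 6.99% of all genes were lower and 8.52% higher at that level. Ythdc2 was at 17.8 and 18.3 scaled CPM in the WT and 14.6 and 14.4 in the cKO samples. The log2 fold change was below 0 for 12 of the 16, with a median of -0.30 against 0.00 over all genes tested. Groups did not overlap for 8 of the 16 on the lower side (50%) and for 2 on the higher side (12.5%), where this held for 26.1% and 24.8% of all genes.

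**Figure D5:**
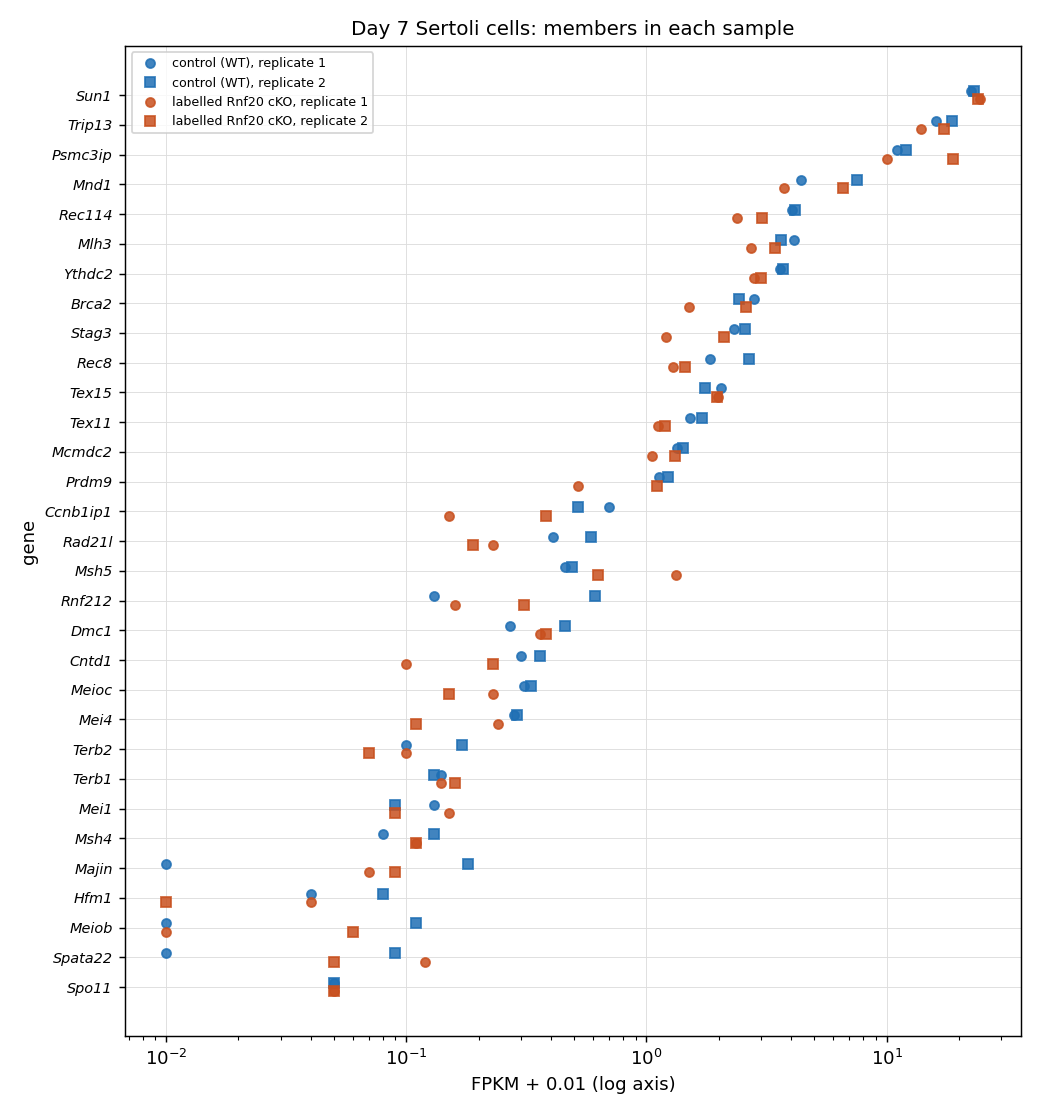
FPKM plus 0.01 of each of the 31 genes in the 4 day 7 Sertoli cell samples on a log axis, ordered by the WT mean with the highest at the top, blue for WT and orange for cKO, with a marker shape per replicate. Sun1, Trip13 and Psmc3ip lie above 10 in all 4 samples, 16 genes have a WT mean under 0.5, and the lowest genes rest on 3 counts or fewer.

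The members with the highest level per length at day 7 were Sun1, at an FPKM of 22.5 and 23.2 in the WT and 24.4 and 24.0 in the cKO samples, and Trip13, at 16.0 and 18.8 against 13.8 and 17.3. Psmc3ip followed at 10.99 and 12.0 against 10.1 and 18.9. These 3 were the only members with a WT mean of at least 10. A further 4 members, all measured well above the floor in the adult WT testis, rested on 3 counts or fewer in every day 7 sample: Spo11 had 1 count in each of the 4 samples, Meiob had 0, 2, 0 and 1, Spata22 had 0, 2, 2 and 1, and Majin had 0, 3, 1 and 2, in the order WT 1, WT 2, cKO 1 and cKO 2. At this depth no difference could be detected for these 4 genes, and no fold is given.

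At the lower end of the day 7 fold changes were Ccnb1ip1, Rec8 and Prdm9. Ccnb1ip1 was at 0.847 and 0.618 scaled CPM in the WT and 0.175 and 0.458 in the cKO samples, a log2 fold change of -1.19 ± 0.57 (SE; edgeR adjusted p = 0.401) that rests on 15 counts at most. Rec8 was at 3.22 and 4.66 against 2.33 and 2.57, with -0.68 ± 0.28 (SE; edgeR adjusted p = 0.352). Prdm9 was at 4.46 and 4.04 against 1.75 and 4.004, so that cKO 1 alone was far from the WT samples, with -0.56 ± 0.43 (SE; edgeR adjusted p = 0.586).

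At the upper end were Msh5, Psmc3ip and Sun1. Msh5 was at 1.13 and 1.18 scaled CPM in the WT and 3.20 and 1.54 in the cKO samples, both of them above the WT samples, with a log2 fold change of 1.04 ± 0.45 (SE; edgeR adjusted p = 0.363). Psmc3ip was at 7.68 and 8.42 against 7.28 and 13.6, with 0.37 ± 0.33 (SE; edgeR adjusted p = 0.641), and the groups overlapped. Sun1 was at 84.5 and 86.0 against 93.9 and 91.1, with 0.12 ± 0.07 (SE; edgeR adjusted p = 0.509). For each of these genes, a p that misses the threshold does not show that the groups are alike.

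The day 7 cKO samples differed from each other, and the calls moved with which one was used. Without cKO 2, 4 members fell, Brca2, Prdm9, Mlh3 and Stag3, where 18.8% of all genes did, and Msh5 rose, where 21% of all genes did. Without cKO 1 none fell, where 11.7% of all genes did, and Psmc3ip rose, where 9.74% of all genes did. Both fits leave 1 cKO sample, which is assumed to vary like the WT pair. These samples also differed in their marker lists. The summed FPKM of 15 Sertoli cell markers was 2863 and 2633 in the WT and 1844 and 2122 in the cKO samples, and among them Sox9 was at 41.8 and 39.4 against 10.2 and 25.7, while Fshr and Rhox5 were at 2.16 or less in all 4. Stromal and myoid genes were also present: the 6 fibroblast markers summed to 2152 and 2236 against 3920 and 3306. All 6 of them and all 7 myoid markers lay above both WT samples in both cKO samples, as did 24.8% of all genes tested. Of the 15 Sertoli cell markers, 10 lay below both WT samples in both cKO samples, as did 26.1% of all genes tested, and 1 lay above. The 13 spermatogonium markers tested had log2 fold changes with a median of -0.62, and the germ cell gene Ddx4 was at an FPKM of 5.48 and 6.93 against 3.70 and 4.12. No marker in any list passed an adjusted p under 0.05, and the part of these shifts in the values of the members was not tested.

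Of 26 other recombination genes tested at day 7, none passed an adjusted p under 0.05 in edgeR, none passed an unadjusted p under 0.05, and their median log2 fold change was -0.18. Their extremes were Rad54b and Palb2 at -0.50 and -0.45 and Rpa3 and Nbn at 0.09 and 0.08. The 8 shared cohesin genes had log2 fold changes from -0.23 for Pds5a and -0.20 for Wapl to 0.11 for Smc3 and 0.20 for Smc1a. Since the 2 tables were processed separately, no test was made between day 7 and adult values.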

How the data were processed

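RNA was sequenced on a BGISEQ platform after oligo(dT) enrichment. The authors used HISAT against the GRCm38.p6 genome, Bowtie2 against reference genes, and RSEM for FPKM. Versions and strand handling are not given in the sources used here, and these steps are stated for the Sertoli cells only. The deposited tables hold expected counts (not normalized), FPKM (per gene length and library total) and TPM as computed by the authors; no test used TPM. In the adult table there were 20 further columns without any value. The study's methods give more individuals per group at day 7 than the 2 samples analysed here.

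Samples were grouped by title, and each table was fitted alone. The main test was edgeR's quasi-likelihood test (edgeR 4.0.16, R 4.3.3) on rounded counts, TMM scaled, for genes that reached an FPKM of 0.5 in a number of samples equal to the group size (12880 of 17816 genes at day 7, 15919 of 20007 in the adult), with Benjamini-Hochberg adjustment over all genes tested. The standard error was the log2 fold change over the root of the F statistic. The code of the test was tried on simulated counts, which were made less variable than these data, and no result here rests on that trial. Scaled CPM are counts over the library size times its TMM factor, in CPM units. Implied length was count over FPKM and library total, for genes with at least 20 counts and an FPKM of 0.5. Alternatives used DESeq2 1.42.0, limma 3.58.1 on log2(FPKM + 0.1) and log2(FPKM + 1), other scalings and filters, a replicate block and each sample left out. Python 3.11.15 with pandas 2.3.3 and matplotlib 3.10.9 did the rest. All 31 members are named, with values in every sample for at least the 3 lowest and 3 highest log2 fold changes of each table, and other pathway genes by the 2 lowest and 2 highest; single marker genes were chosen after their values were seen. The members, lists and tests were chosen with earlier results of these data known.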

Additional observations from a re-analysis of the deposited data

Results flagged for a closer look

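Msh5 and Sun1 lay on opposite sides of their controls in the 2 tables, with no overlap of groups in either. Over all genes tested, groups did not overlap on the higher side for 24.8% at day 7. On the lower side in the adult this held for 43.1%. The share of genes that did both was not computed. Msh5 had a log2 fold change of 1.04 in the day 7 Sertoli cells and of -2.13 in the adult testis. Sun1 had 0.12 and -1.22. The 2 tables differ in cell source and were processed separately, so the difference between them was not tested, and neither gene passed the edgeR test at day 7.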

How the results depend on the processing

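No alternative made a member higher in the adult at the study's thresholds. Adult members lower past both thresholds numbered 4 with all samples, 1 with total-count scaling, 19 with DESeq2, 1 with limma on log2(FPKM + 0.1), 0 with the replicate block and 20 at an adjusted p under 0.05 alone, and between 1 and 22 with a sample left out. Over all 15919 genes tested, the lower calls in these fits numbered 3772, 2252, 5653, 2468, 0 and 6466, and between 1613 and 5031 with a sample left out. Genes called in the adult numbered 7432, with 0 under the replicate block, 12969 at an adjusted p under 0.05 alone and 2695 to 10301 with a sample left out. At day 7 edgeR called 0 genes, DESeq2 126, and fits with a sample left out 0 to 650. The replicate numbers did not pair the samples: same-numbered samples had correlations of their deviations of 0.0316 at day 7 and 0.00758, 0.00623 and 0.0273 in the adult, so the block spends degrees of freedom on a number only, and at day 7 it called 0 genes as well.

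Signs turned for few members. In the adult, Mnd1 went from -0.56 to 0.30 (total counts), 0.31 and 0.27 (limma with pseudocounts of 0.1 and 1), Trip13 from -0.82 to 0.067 (total counts), and Prdm9 from -0.20 to 0.67 (total counts), 0.66 and 0.45 (limma), and to between -0.42 and 0.12 with a sample left out (0.10 without WT replicate 1, 0.12 without cKO replicate 1). At day 7 with a sample left out, Tex15 ranged from -0.011 to 0.25, Brca2 from -0.75 to 0.030, Psmc3ip from -0.15 to 0.75, Mnd1 from -0.62 to 0.26 and Trip13 from -0.28 to 0.029. Of the other adult comparisons of single members with an alternative, 345 kept direction and side of the thresholds, 39 newly passed them and 27 no longer did; at day 7 183 kept both. At day 7, members at 3 counts or fewer were too shallow to compare.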
